A study of Rattus norvegicus with 6 samples.

Results

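The corticosteroid genes described here are the glucocorticoid receptor gene Nr3c1, the mineralocorticoid receptor gene Nr3c2 and 8 genes that corticosteroids induce, Sgk1, Tsc22d3, Fkbp5, Zbtb16, Klf9, Dusp1, Errfi1 and Tat. They were found on the array by the transcript accession of each probe. All 10 genes were present, with 19 probes, among 15645 genes that the accessions named. The tissue was kidney cortex from male rats of the Sprague-Dawley strain, bought at 5 weeks of age and each a separate animal. Vehicle rats (n = 3) received corn oil for 4 weeks, and treated rats (n = 3) received p-nitroanisole, a nitrobenzene with a methoxy group, at 500 mg/kg per day for 4 weeks. Each animal had 1 single-colour (Cy3) Agilent array. The comparison asks how transcript levels of treated rats differ from those of vehicle rats. The sources used here give neither the dosing route nor the hour at which tissue was taken, and they name no surgery and no hormone treatment.

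Cortisol and corticosterone, the latter being the main glucocorticoid of the rat, bind a receptor that waits in the cytoplasm on a chaperone complex and then enters the nucleus. There the receptor binds response elements as a dimer and raises or lowers transcription. Aldosterone does the same through the mineralocorticoid receptor, which in the distal nephron and collecting duct controls sodium reabsorption. The mineralocorticoid receptor also binds glucocorticoids, and the enzyme made by Hsd11b2 inactivates these in aldosterone target cells. Levels below are log2 values of the probe's intensity minus the 75th percentile of its array, so that 0 is the brightness of the probe at that percentile. A difference is the treated mean minus the vehicle mean on that scale. Levels of different probes are not set against each other, since probes differ in how well they bind.

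The 6 arrays had 66.4% to 69.2% of their 61537 probes well above background, and no spot was saturated. Pairs of arrays correlated across the 32197 rows tested (named genes and unnamed probes) at r = 0.989 to 0.994, where genes are not independent replicates. Treated replicate 3 lay on a second slide and gave the lowest correlations, while the other 5 arrays shared slide 1. The proximal tubule genes Slc34a1, Slc22a6 and Slc5a2, which mark most of the cortex, had mean levels between 7.54 and 8.38 in both groups. Red cell precursor genes were the markers that differed most, with 4 of 4 tested genes higher and a median difference of 2.00. Of the 4 only Alas2 was called (1.91, limma adjusted p = 0.0404). Hemgn had no probe well above background on all 6 arrays, and the median of the other 3 genes was 2.01.

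None of the 9 member genes that could be tested was called different between the groups (limma, Benjamini-Hochberg adjusted p over all rows, threshold 0.05), against 0.0745% of all rows. At an unadjusted p under 0.05 there was 1 member, Sgk1, against 13.4% of all rows. Of all rows, 0.0248% were called lower and 0.0497% higher, and 5.76% were lower and 7.68% higher at an unadjusted p under 0.05. Of the 9 genes, 8 had a lower treated mean, against 47.6% of all rows, and 1 a higher one, against 52.4%, and their median difference was -0.19, against 0.01 over all rows. The higher one was Zbtb16, whose probe was tested only through the treated arrays. The median was -0.12 without vehicle replicate 2, -0.09 without treated replicate 1 and -0.26 without vehicle replicate 1. Groups did not overlap for 1 of the 9, Sgk1, which was lower, against 22.2% of all rows (10.3% lower and 11.9% higher). The tenth gene, Tat, was not well above background on any array. The samples are bulk tissue, so fewer cells of a type and less RNA per cell cannot be told apart.

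**Figure D1:**
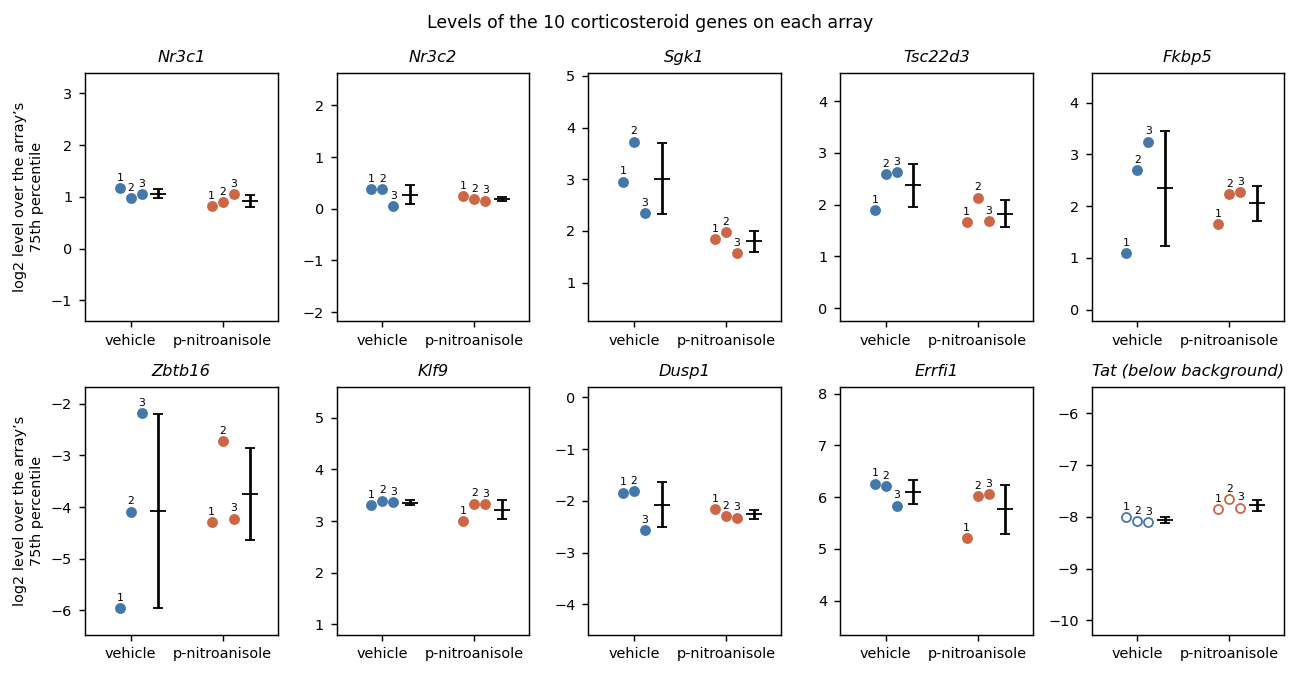
Log2 level (relative to the array's 75th percentile, same span of units in each panel) of the 10 genes on the 3 vehicle (blue) and 3 p-nitroanisole (orange) arrays, numbered by replicate; black bars are the mean and SD, and open circles mark a probe below background. Sgk1 is the tested gene whose groups are apart, while Fkbp5 and Zbtb16 spread over 2.15 and 3.76 units among the vehicle arrays alone.

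Nr3c1 encodes the glucocorticoid receptor and had 3 probes, all well above background on all 6 arrays. On its brightest probe the levels were 1.16, 0.98 and 1.05 on vehicle arrays 1 to 3 and 0.82, 0.90 and 1.06 on treated arrays 1 to 3. Treated replicates 1 and 2 lay below every vehicle array and treated replicate 3 lay among them. The difference was -0.14 (SE 0.09, 95% interval -0.37 to 0.08, limma adjusted p = 0.542), and the other probes gave -0.13 (SE 0.20) and 0.07 (SE 0.13). The difference was -0.07 as the mean over its probes and -0.09 without either vehicle replicate 1 or treated replicate 1. It was -0.20 with median scaling and -0.21 within slide 1.

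Nr3c2 encodes the mineralocorticoid receptor. Its brightest probe read 0.38, 0.39 and 0.05 on the vehicle arrays and 0.24, 0.18 and 0.16 on the treated arrays. All 3 treated values fell inside the vehicle range, and the treated rats were closer to each other (SD 0.04) than the vehicle rats (SD 0.19). The difference was -0.08 (SE 0.11, 95% interval -0.35 to 0.18, limma adjusted p = 0.764). Leaving out vehicle replicate 3 gave -0.19, and leaving out vehicle replicates 1 and 2 in turn gave -0.03 and -0.02. Scaling to the median gave -0.14 and normexp background correction -0.03. Both other probes of Nr3c2 were well above background on all 3 vehicle arrays and on 1 treated array. They were tested only through the vehicle arrays, so no difference is given for them. The mean over the 3 probes, which takes in those dim values, gave -0.26.

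Sgk1 encodes a kinase that aldosterone and glucocorticoids induce, and that keeps the epithelial sodium channel at the cell surface by inhibiting the ubiquitin ligase of Nedd4l. Its levels were 2.95, 3.73 and 2.35 on the vehicle arrays and 1.85, 1.98 and 1.57 on the treated arrays. All 3 treated rats lay below all 3 vehicle rats, although the lowest vehicle value was nearer to the treated values than to the highest vehicle value. The difference was -1.21 (SE 0.35, n = 3 per group), a 2.32-fold lower mean, with a 95% interval of -2.07 to -0.36 and a limma adjusted p of 0.252. Sgk1 thus did not pass the threshold over all rows, and its adjusted p lay between 0.176 and 0.432 in 18 alternatives (of which 3, the slide as a block, slide 1 alone and treated replicate 3 left out, are 1 fit), in which the difference was between -1.54 and -0.85. It was -1.098 within slide 1. The vehicle rats spread over 1.38 log2 units (SD 0.69), and 1.84% of all rows had a vehicle SD at least as large. The array holds 1 named probe for the gene, so no second probe bears on it.

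Tsc22d3, the gene of GILZ, is a leucine zipper protein that mediates anti-inflammatory effects of glucocorticoids. Its brighter probe read 1.90, 2.60 and 2.62 on the vehicle arrays and 1.66, 2.14 and 1.69 on the treated arrays. Treated replicates 1 and 3 lay below every vehicle array, and treated replicate 2 lay above vehicle replicate 1. The difference was -0.54 (SE 0.24, 95% interval -1.13 to 0.05, limma adjusted p = 0.405), and the second probe gave -0.56 (SE 0.34). Over the alternatives it ranged from -0.78 without vehicle replicate 1 to -0.42 without vehicle replicate 3.

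**Figure D2:**
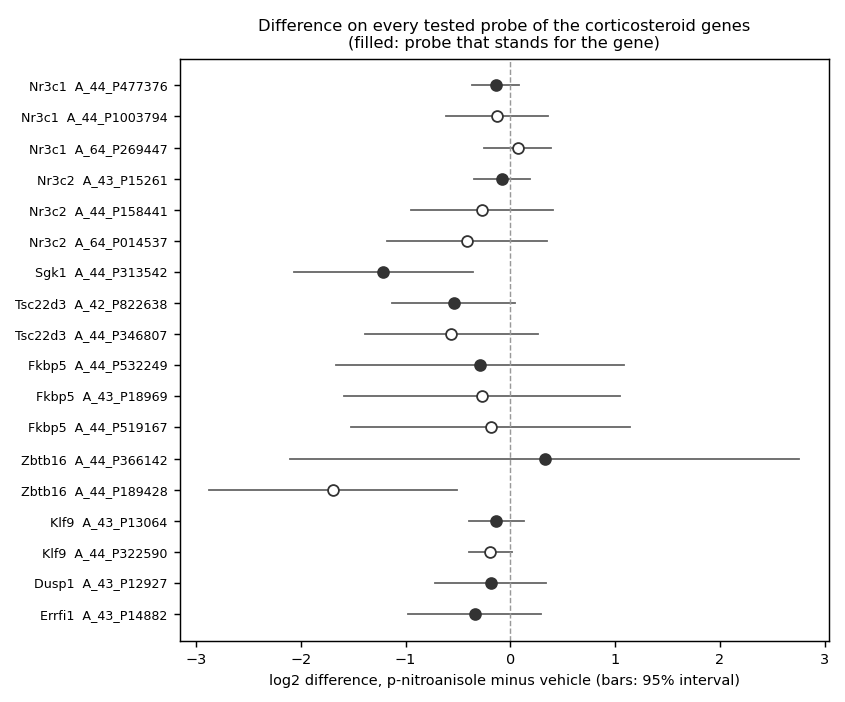
Log2 difference (p-nitroanisole minus vehicle, horizontal axis) on each of the 18 tested probes of the corticosteroid genes, with 95% intervals from limma; filled circles mark the probe that stands for the gene. Of the 18 probes 16 lie below 0, against 48.3% of all tested probes with every probe as its own row. Probes of the same gene are not separate measurements. The interval of Sgk1 does not reach 0. The 16 include both dimmer Nr3c2 probes and the dimmer Zbtb16 probe, whose interval does not reach 0 either. On each of these probes 2 of the 3 treated arrays were not well above background. They were tested only through the vehicle arrays, a choice that favours a lower difference, so nothing is read from them. The count of 16 is therefore only a description. The brighter Zbtb16 probe was tested only through the treated arrays, and nothing is read from its direction either.

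The promoters of Sgk1 and Tsc22d3 are printed because these genes had the largest lower differences, that of Fkbp5 because its vehicle rats spread most among the well-measured members, and that of Dusp1 because it held a cyclic AMP element. RefSeq lists several starts for Sgk1 and Tsc22d3, and the window with a TATA box nearest to its start was chosen after the matches were seen. The windows run from 250 bases before to 50 bases after a RefSeq transcript start, on the build GRCr8. Of the 10 genes, 8 had entries, with 13 windows in all. Both strands were searched for the palindromic glucocorticoid response element (AGAACA, any 3 bases and TGTTCT), its half-site AGAACA (which the palindrome contains), the cyclic AMP response element TGACGTCA, the TATA box TATAAA and the GC box GGGCGG. Matches are in capitals, in the orientation of the gene, so that a motif on the other strand shows as its reverse complement.
Sgk1 (chr1:24804782-24805081, minus strand): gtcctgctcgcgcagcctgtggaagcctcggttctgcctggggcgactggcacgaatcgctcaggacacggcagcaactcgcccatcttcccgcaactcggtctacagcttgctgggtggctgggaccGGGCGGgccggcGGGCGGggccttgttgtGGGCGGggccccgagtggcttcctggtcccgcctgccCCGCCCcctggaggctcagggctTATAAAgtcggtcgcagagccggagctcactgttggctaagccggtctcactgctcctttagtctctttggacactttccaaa
Tsc22d3 (chrX:109009985-109010284, minus strand): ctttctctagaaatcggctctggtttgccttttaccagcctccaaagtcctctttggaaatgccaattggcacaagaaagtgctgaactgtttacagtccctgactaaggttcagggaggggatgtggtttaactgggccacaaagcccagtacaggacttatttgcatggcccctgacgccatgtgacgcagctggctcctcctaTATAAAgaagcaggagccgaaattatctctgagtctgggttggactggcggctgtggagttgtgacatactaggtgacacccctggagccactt
Fkbp5 (chr20:6543506-6543805, minus strand): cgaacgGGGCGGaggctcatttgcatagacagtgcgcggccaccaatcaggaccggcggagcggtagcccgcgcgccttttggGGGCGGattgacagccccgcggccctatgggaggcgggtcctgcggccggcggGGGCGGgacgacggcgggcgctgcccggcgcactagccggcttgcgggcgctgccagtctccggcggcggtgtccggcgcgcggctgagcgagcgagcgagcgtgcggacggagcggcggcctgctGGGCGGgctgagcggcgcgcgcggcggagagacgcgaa
Dusp1 (chr10:17184603-17184902, plus strand): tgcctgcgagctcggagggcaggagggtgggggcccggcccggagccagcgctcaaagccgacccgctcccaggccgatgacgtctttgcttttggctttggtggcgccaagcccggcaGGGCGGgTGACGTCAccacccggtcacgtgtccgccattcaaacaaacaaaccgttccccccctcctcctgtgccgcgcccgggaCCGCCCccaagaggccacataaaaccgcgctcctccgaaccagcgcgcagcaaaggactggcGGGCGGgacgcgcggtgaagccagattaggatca

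The palindromic element was in 0 of the 13 windows of these genes and in 0.0149% of all 33469 windows of the same length, and the half-site in 0 of the 13 and in 20.7% of all. In the Sgk1 window a TATA box lay 33 to 28 bases before the start, with 4 GC boxes upstream of it. The Tsc22d3 window held a TATA box 44 to 39 bases before the start, and the Fkbp5 window held 4 GC boxes and no TATA box. Among the 13 windows, 4 held a TATA box (14.2% of all) and 9 a GC box (33.1% of all). Dusp1 had the 1 cyclic AMP response element, 124 to 117 bases before the start, against 1.83% of all windows. These are matches of letters. They show no binding, and a window without a match says only that the letters are not in it.

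Fkbp5 encodes the cochaperone FKBP51, which lowers the hormone affinity of the receptor complex and is itself induced by it. Its brightest probe read 1.095, 2.69 and 3.25 on the vehicle arrays and 1.66, 2.23 and 2.27 on the treated arrays. Vehicle replicate 1 was the lowest and vehicle replicate 3 the highest of all 6 rats, and all 3 treated rats fell between them. The same order of the vehicle rats was seen on both other probes, which read -2.29, -0.94 and -0.12, and -1.21, 0.29 and 0.96. The difference was -0.29 (SE 0.56, 95% interval -1.66 to 1.08, limma adjusted p = 0.840). Leaving out vehicle replicate 3 turned it to 0.16. It was -0.91 with vehicle replicate 1 left out, -0.12 with vehicle replicate 2 left out and -0.09 with treated replicate 1 left out. The vehicle SD of 1.12 was matched or exceeded by 0.556% of all rows, while the treated SD was 0.34.

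Zbtb16 encodes the zinc finger repressor PLZF, a gene that glucocorticoids strongly induce in several tissues. Its probes were close to background and disagreed. The brighter one was well above background on 2 vehicle and 3 treated arrays, so it was tested only through the treated arrays. It read -5.95, -4.09 and -2.19 on the vehicle arrays and -4.29, -2.73 and -4.22 on the treated arrays. Its difference was 0.33 (SE 0.99, limma adjusted p = 0.902), and nothing is read from its direction. Vehicle replicate 1 was lowest and vehicle replicate 3 highest, as for Fkbp5. The dimmer one was well above background on 3 vehicle arrays and 1 treated array, with -4.98, -3.87 and -4.17 against -6.70, -5.10 and -6.29. On that probe 2 of the 3 treated values were not well above background, and it was tested only because its vehicle arrays were, so no difference is given for it. On the brighter probe the direction turned without vehicle replicate 1 (-0.61) and without treated replicate 2 (-0.18), and the mean of both probes, which takes in those dim values, gave -0.68. It was 1.27 with vehicle replicate 3 left out, 0.60 with treated replicate 1 left out, 0.57 within slide 1 and 0.06 with normexp.

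Klf9, a Krüppel-like factor induced by glucocorticoids and by thyroid hormone, read 3.31, 3.40 and 3.36 on the vehicle arrays and 3.00, 3.34 and 3.32 on the treated arrays. Treated replicate 1 was the lowest rat and the other 2 treated rats lay within the vehicle range. The difference was -0.13 (SE 0.11, 95% interval -0.40 to 0.13, limma adjusted p = 0.616), -0.03 without treated replicate 1 and -0.19 without treated replicate 2. On the second probe all 3 treated rats lay below the vehicle rats (0.35, 0.53 and 0.43 against 0.14, 0.33 and 0.27), with a difference of -0.19 (SE 0.08, limma adjusted p = 0.397 with every probe as its own row).

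Dusp1 encodes a phosphatase that switches off p38 and JNK and is part of the anti-inflammatory response to glucocorticoids. It read -1.84, -1.81 and -2.57 on the vehicle arrays and -2.16, -2.30 and -2.32 on the treated arrays. The treated rats lay between vehicle replicate 3 and the other 2 vehicle rats. The difference of -0.19 (SE 0.22, 95% interval -0.72 to 0.34, limma adjusted p = 0.728) became -0.44 with vehicle replicate 3 left out, and -0.07 or -0.06 with vehicle replicate 1 or 2 left out.

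Errfi1 encodes MIG6, an inhibitor of the EGF receptor. It read 6.26, 6.21 and 5.84 on the vehicle arrays and 5.21, 6.01 and 6.06 on the treated arrays. Treated replicate 1 was the lowest rat and the other treated rats lay within the vehicle range. The difference was -0.34 (SE 0.26, 95% interval -0.97 to 0.29, limma adjusted p = 0.597), -0.07 without treated replicate 1 and -0.49 within slide 1. Treated replicate 1 was the lowest treated rat for 6 of the 9 tested members and treated replicate 3 for the other 3.

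Tat encodes tyrosine aminotransferase, a classic glucocorticoid-induced enzyme of the liver. Its probe was not well above background on any of the 6 arrays, with readings of -8.11 to -7.66, so no fold is given. Of the downstream enzymes of tyrosine breakdown, which do not depend on that probe, 4 of 4 were tested and none was called (0 at an unadjusted p under 0.05), with a median difference of 0.01 and Hgd at 0.20 (SE 0.12), Gstz1 at -0.06 (SE 0.08) and Hpd at 0.04 (SE 0.08; the direction of Hpd turned in several alternatives).

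The vehicle rats thus differed in more than 1 way. On the probes that stand for them, Sgk1, Dusp1 and Nr3c2 were highest in vehicle replicate 2 and lowest in vehicle replicate 3. Fkbp5, Tsc22d3 and Zbtb16 were highest in vehicle replicate 3 and lowest in vehicle replicate 1 on theirs. Some top ranks were near ties, with Tsc22d3 at 2.60 and 2.62 on vehicle arrays 2 and 3. On vehicle arrays 1 and 2, Nr3c2 read 0.378 and 0.387 and Dusp1 -1.84 and -1.81. Fkbp5 kept its order on every probe. The second probes of Tsc22d3 and Zbtb16 were highest in vehicle replicate 2, and the other Nr3c2 probes did not keep its order. Among 27 tested genes of a list of other glucocorticoid-induced genes, 11 were highest in vehicle replicate 2 and lowest in replicate 3, and 2 were highest in replicate 3 and lowest in replicate 1. The first group held Per1 (-1.81, -1.11 and -3.24 on vehicle arrays 1 to 3), a clock gene with a response element, and Ddit4 (2.39, 3.15 and 1.44), an inhibitor of mTOR signalling. It also held Rasd1 (-1.28, -0.44 and -2.54), a Ras-like protein first found as dexamethasone-induced. The vehicle SDs of Per1, Ddit4 and Rasd1 were 1.08, 0.85 and 1.05, against a median of 0.11 over all rows. The counts also take in genes that hardly varied, such as Mt2A among the 11 (vehicle SD 0.02) and Cavin2 among the 2 (0.002). The share of all rows with either order was not counted, so the counts are a description.

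**Figure D3:**
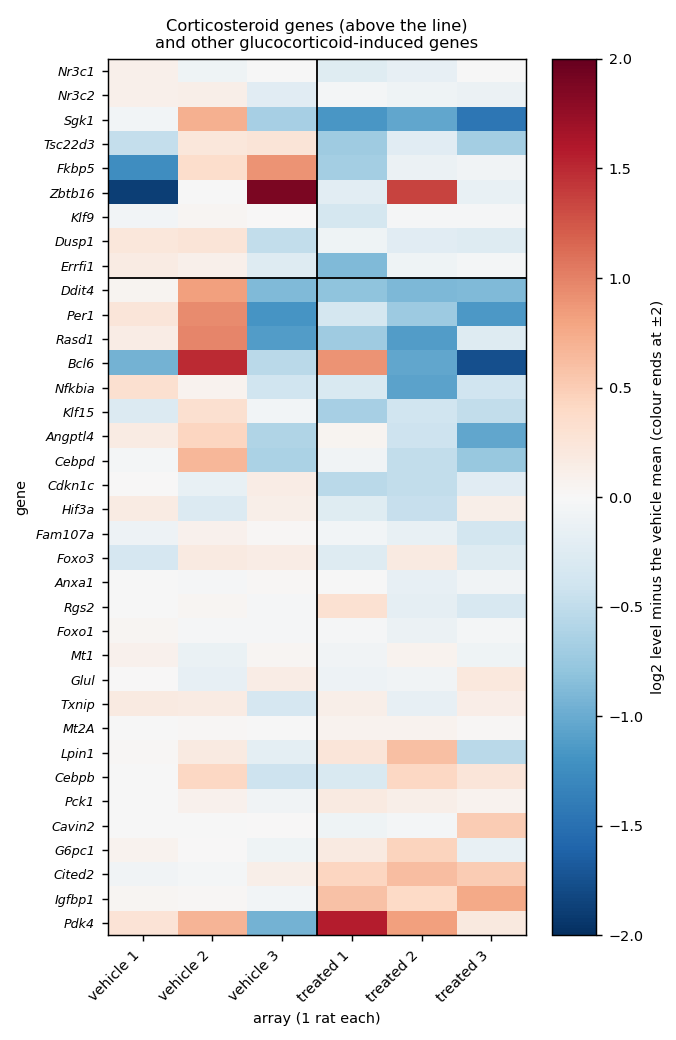
Log2 level minus the vehicle mean (colour, red higher and blue lower, ending at 2 units either way) of the 9 tested corticosteroid genes and the 27 other glucocorticoid-induced genes (rows) on the 6 arrays (columns). Sgk1 is blue on all 3 treated arrays, Fkbp5 and Zbtb16 run from blue to red across the vehicle arrays, and Per1, Ddit4 and Rasd1 are red in vehicle replicate 2 and blue in vehicle replicate 3.

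Of these 27 other glucocorticoid-induced genes none was called (limma; 4 at an unadjusted p under 0.05, 2 lower and 2 higher), 16 were lower and 11 higher, and their median difference was -0.07. The largest differences were those of Pdk4, Ddit4 and Per1. Pdk4, a kinase that holds back pyruvate oxidation, was 0.87 higher (SE 0.52, limma adjusted p = 0.517), with -1.78, -1.39 and -3.01 on the vehicle arrays against -0.48, -1.24 and -1.86. Ddit4 differed by -0.86 (SE 0.41, limma adjusted p = 0.430), and its treated rats (1.53, 1.42 and 1.44) lay near the level of vehicle replicate 3, while its other probes gave -1.04 and -1.02. Per1 differed by -0.74 (SE 0.55, limma adjusted p = 0.590), and its treated rats (-2.399, -2.79 and -3.21) lay inside the vehicle range, while its other probe gave -0.24 (SE 0.34). The 3 differences ranged from 0.39 to 1.20, from -1.30 to -0.45 and from -1.34 to -0.27 over the alternatives.

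Groups did not overlap for 4 of the 27 genes of this list (2 lower and 2 higher), against 22.2% of all rows (10.3% lower and 11.9% higher). These 4 were named after their values were seen. Cited2, a transcriptional coregulator, was higher in all 3 treated rats (4.17, 4.36 and 4.24 against 3.66, 3.69 and 3.85), with a difference of 0.52 (SE 0.09, limma adjusted p = 0.133), and it was called with a trended robust variance. Igfbp1, a binding protein of insulin-like growth factors, was also higher (1.49, 1.30 and 1.66 against 0.94, 0.92 and 0.84), by 0.58 (SE 0.11, limma adjusted p = 0.144). Klf15, a factor of gluconeogenesis and amino acid breakdown, was lower in all 3 treated rats, with a difference of -0.52 (SE 0.16), and so was the cell cycle inhibitor Cdkn1c, with -0.42 (SE 0.12). The gluconeogenic genes Pck1 and G6pc1, which glucocorticoids induce in liver and kidney, had treated-minus-vehicle differences of 0.12 (SE 0.07) and 0.16 (SE 0.16), and the direction of Pck1 turned in 1 alternative.

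The machinery around the receptors differed little in size. Of 13 tested chaperone and coregulator genes none was called (limma; 2 at an unadjusted p under 0.05, against 13.4% of all rows). Their median was -0.003, and 7 were lower, against 47.6% of all rows. Nrip1, a corepressor of nuclear receptors, differed by -0.23 (SE 0.08), although its other probes gave -0.40, -0.16 and 0.07. Bag1, a cochaperone, differed by 0.19 (SE 0.06) and Hspa4 by 0.17 (SE 0.10). Hsp90aa1 and Hsp90ab1, the HSP90 genes that hold the receptor ready for hormone, differed by 0.12 (SE 0.07) and -0.04 (SE 0.07). The direction of Hsp90ab1 turned in 2 alternatives, and its other probes gave 0.07, 0.20, 0.002 and 0.10. The other probes of Hsp90aa1 gave 0.13 to 0.20.

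Corticosteroid conversion was represented by 4 tested genes of 6, none of them called and none at an unadjusted p under 0.05 (limma). H6pd, which supplies cofactor to the activating enzyme, differed by 0.19 (SE 0.09), Hsd11b2 by -0.17 (SE 0.12) and the reductase Srd5a1 by -0.09 (SE 0.14). Hsd11b1, which regenerates active glucocorticoid, differed by 0.02 (SE 0.08, 95% interval -0.18 to 0.21). The directions of Srd5a1 and Hsd11b1 each turned in 4 alternatives, and the other probe of Srd5a1 gave 0.17 (SE 0.14). Akr1d1 and Cyp3a9 were not well above background on any array.

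Aldosterone-regulated sodium transport genes were tested for 19 of 22 names, with none called (limma; 1 at an unadjusted p under 0.05, against 13.4% of all rows). Of the 19, 12 were lower, against 47.6% of all rows, with a median of -0.04. Kcnj10, 1 of the 12, was well above background on 2 of the 3 treated arrays, so it was tested only through the vehicle arrays. Groups did not overlap for 5 of the 19 (3 lower and 2 higher), against 22.2% of all rows (10.3% lower and 11.9% higher). The sodium channel subunit Scnn1b was lower in all 3 treated rats on its brighter probe (4.16, 3.84 and 4.10 against 4.18, 4.48 and 4.46). That probe gave a difference of -0.34 (SE 0.13, limma adjusted p = 0.333). On the other Scnn1b probe the groups overlapped and the difference was -0.24 (SE 0.14). The gamma subunit Scnn1g was lower in all 3 as well, with -0.26 (SE 0.11). The alpha subunit Scnn1a, the one that aldosterone induces in the rat kidney, differed by -0.13 (SE 0.21), a direction that turned in 1 alternative. The other Scnn1a probe gave -0.36 (SE 0.18). Endothelin-1, from Edn1, had a higher treated mean, by 0.50 (SE 0.21). The thiazide-sensitive transporter Slc12a3 differed by -0.03 (SE 0.11), a direction that turned in 3 alternatives.

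Principal cell markers of the collecting duct, a site of aldosterone action, were lower for 6 of 6 tested genes, against 47.6% of all rows. Their median was -0.27, with none called and 2 at an unadjusted p under 0.05 (limma), against 13.4% of all rows. Avpr2, the vasopressin receptor gene, differed by -0.41 (SE 0.06, limma adjusted p = 0.117; called with a trended robust variance), Scnn1b by the value above and Aqp3 by -0.29 (SE 0.13). The summed intensity of the list, in multiples of the array's 75th percentile, was 208 to 233 in vehicle rats and 175 to 202 in treated rats, and no marker was below background on all arrays. Of the 6 genes, Scnn1b and Scnn1g are also on the aldosterone list and Hsd11b2 on the conversion list, so the lists are not separate measurements, and the direction of Aqp2 turned in 1 alternative. The marker genes thus differed in the same direction as Sgk1, by a smaller amount, and their part in the Sgk1 difference was not tested.

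Other markers were read the same way. The summed intensity of 5 T and NK cell markers was 1.79 to 1.85 in vehicle rats and 1.53 to 1.85 in treated rats. All 5 had lower treated means in the main analysis, but the direction of Cd2 turned in 7 and that of Nkg7 in 4 of 17 alternatives, and Cd3e was well above background on only 2 of the 3 treated arrays. That of 5 macrophage markers, 3 of them lower, was 7.09 to 8.57 and 5.02 to 8.002. Endothelial markers (3 of 5 lower) summed to 36.1 to 37.8 and 33.2 to 35.8, and proximal tubule markers (2 of 7 lower) to 1261 to 1282 and 1285 to 1358. Intercalated cell markers (3 of 4 lower) summed to 93.2 to 98.6 and 73.0 to 91.1, thick limb markers (1 of 4 lower) to 264 to 383 and 331 to 348, and podocyte markers (3 of 4 lower) to 35.1 to 37.2 and 31.2 to 38.2. Distal convoluted tubule markers (1 of 2 lower, Pvalb not above background) summed to 24.1 to 29.7 and 24.6 to 30.7. Hepatocyte markers (2 of 4 lower, Apoa2 not above background) summed to 87.3 to 94.995 and 88.9 to 101, and adipocyte markers (1 of 2 lower, Lep not above background) to 1.15 to 1.51 and 0.680 to 1.19. Of 5 adrenal cortex markers, Cyp11b1, Cyp11b2, Mc2r and Star were not well above background on any array, and Cyp11a1 was well above background on 2 vehicle and 3 treated arrays, so that it was tested only through the treated group. Its difference was 1.16 (SE 0.33, limma adjusted p = 0.250) and 0.50 with normexp, and nothing is read from its direction. The part of these cells in any member's difference was not tested.

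Several members also respond to growth factors and acute stimuli. Of 17 immediate early genes none was called (limma; 3 at an unadjusted p under 0.05, all higher, against 7.68% of all rows higher). In this list 9 were lower, against 47.6% of all rows, and the median was -0.03. Egr1 had a higher treated mean, by 0.78 (SE 0.27), while Klf2 and Nr4a1 had lower treated means, with differences of -0.57 (SE 0.25) and -0.47 (SE 0.31). Of 7 tested genes of MAPK and EGFR feedback, to which Dusp1 and Errfi1 are related, none was called (2 at an unadjusted p under 0.05, both higher) and 5 were higher, with a median of 0.11. Dusp5, a phosphatase of ERK, was higher in all 3 treated rats (1.74, 2.09 and 2.33 against 1.28, 1.17 and 1.54), by 0.72 (SE 0.18, limma adjusted p = 0.205). Spry2 and Spry4, inhibitors of receptor tyrosine kinase signalling, were higher in all 3 as well, by 0.41 (SE 0.14) and 0.31 (SE 0.14). Groups did not overlap for 3 of the 7 genes of this list, all higher, against 22.2% of all rows (10.3% lower and 11.9% higher).

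**Figure D4:**
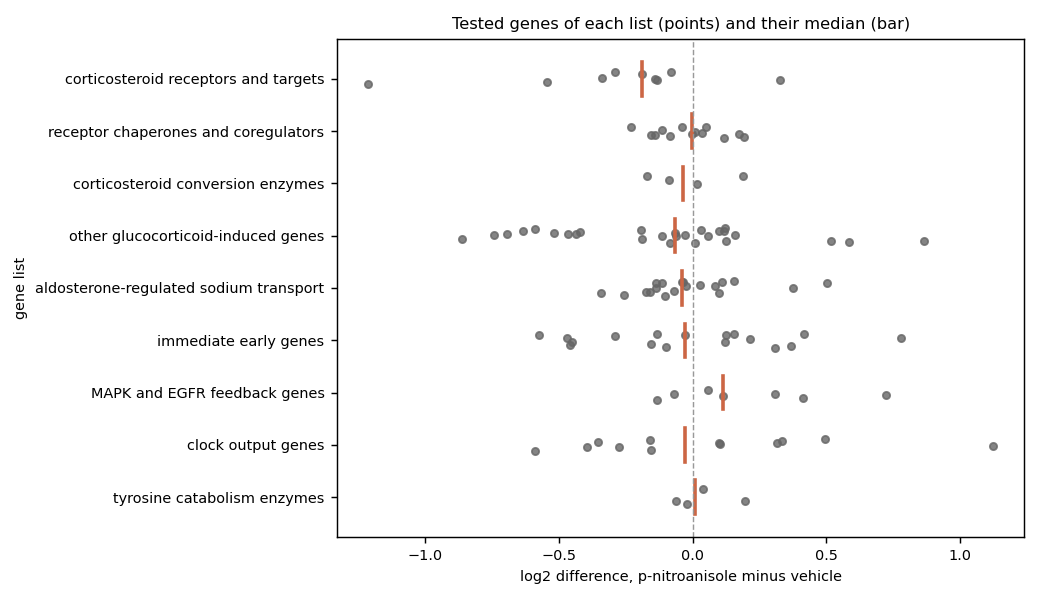
Log2 difference (p-nitroanisole minus vehicle, horizontal axis) of each tested gene (points) in the corticosteroid genes and 8 related lists (rows), with the median of each list as a bar. The corticosteroid genes have the lowest median at -0.19, with Sgk1 at -1.21, and the MAPK and EGFR feedback list has the highest at 0.11.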

How the data were processed

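The authors read single-colour arrays of 6 rats with the Feature Extraction software of Agilent. Its version was 10.7.1.1 per the file headers and 10.7 per the submitters' processing notes. The deposited scanner files give the processed intensity of each spot, background-subtracted and not scaled between arrays. The deposited series matrix holds the same intensity divided by 1 constant per array, by comparison with the scanner values (column medians 0.105 for each vehicle array and 0.109, 0.108 and 0.111 for the treated arrays).

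Outlier-flagged spots, 0 to 4 an array, and 1439 control spots were dropped. Intensities were floored at 1 and log2 values were set relative to each array's 75th percentile. Probes well above background on all 3 arrays of a group were tested (41219 of 61537). Accessions were matched to RefSeq symbols of GRCr8, which named 28206 probes (45.8%). The tested probe with the highest mean stood for a gene. The comparison used lmFit and eBayes of limma 3.58.1 (R 4.3.3), two-sided, with Benjamini-Hochberg adjustment over 32197 rows. The procedure was tested on simulated data. Intervals are 95% and use the limma standard error. With 3 arrays in a group, their number limits the precision.

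The members and lists were chosen with earlier results of these data known. All members are named, and of each list of functions the 3 genes with the largest differences, except 1 result that is not reported here. Other named genes were chosen after their values were seen. Alternatives were quantile and median scaling, series matrix values, other filters, probe rules and variances, a stricter threshold (0.01), blocks for the slide and for the replicate number, each array left out, and normexp on median signals (offset 50), added after the files were seen.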

Additional observations from a re-analysis of the deposited data

How the results depend on the processing

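The count of members called was 0 in all 19 alternatives run. Sgk1, Tsc22d3, Nr3c1, Nr3c2, Klf9, Dusp1 and Errfi1 kept a lower treated mean in all 18 alternatives that refitted them. Of these, the slide as a block, slide 1 alone and treated replicate 3 left out are the same fit, since slide 2 held that array alone. Fkbp5 turned to 0.16 without vehicle replicate 3 and had its lowest value, -0.91, without vehicle replicate 1. Zbtb16 turned to -0.68 as the mean over its probes, to -0.61 without vehicle replicate 1 and to -0.18 without treated replicate 2, had its highest value, 1.27, without vehicle replicate 3, and was not tested where all 6 arrays had to be above background. The median over the members ranged from -0.26 to -0.09, the extremes coming from leaving out vehicle replicate 1 and treated replicate 1.

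Over all rows, 24 were called, against 85 with normexp, 316 with a trended robust variance, 14 with the mean over probes, 9 with the slide as a block or with slide 1 alone, 2 with no filter, 0 at a threshold of 0.01 and 1 with the replicate block. Leaving out 1 array gave 0 to 9. The replicate block called 0 members, and same-numbered arrays, whose deviations correlated at -0.01, 0.04 and -0.01, were not taken as pairs. Of the called rows 8 were lower and 16 higher, against 8 and 77 with normexp and 8 and 12 with median scaling. Median scaling moved the share of rows with a lower treated mean from 47.6% to 59.7% and normexp to 39.7%, and each moved the median of all rows by less than 0.1. Medians close to 0, those of the chaperone, conversion, aldosterone, immediate early, clock and tyrosine lists, changed sign in some alternatives. The planned normexp on mean signals was not run, because the scanner output holds no mean signal of the spots. Dim probes of Zbtb16 and Nr3c2, near background on some arrays, limit what their differences show.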

Other observations

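Clock genes were read beside the corticosteroid genes because Per1 belongs to both circuits. Of 12 tested clock output genes none was called (limma; 3 at an unadjusted p under 0.05), 6 were lower and 6 higher. Groups did not overlap for 3 of the 12 (1 lower and 2 higher), against 22.2% of all rows (10.3% lower and 11.9% higher). Nr1d1, the gene of the nuclear receptor REV-ERB alpha that represses Bmal1, read -2.54, -2.58 and -0.98 on the vehicle arrays and -0.94, -1.19 and -0.60 on the treated arrays. Vehicle replicate 3, the lowest vehicle rat for Sgk1, Per1 and Ddit4, was near the treated rats for Nr1d1, whose difference was 1.12 (SE 0.46, limma adjusted p = 0.372). Per2 was lower in all 3 treated rats (-0.96, -0.91 and -0.42 against -0.33, -0.01 and -0.19), with a difference of -0.59 (SE 0.17, limma adjusted p = 0.253), and Nr1d2 was higher in all 3, by 0.50 (SE 0.17). Clock, named after its values were seen, was higher in all 3 as well, by 0.33 (SE 0.09), and Bmal1 differed by -0.28 (SE 0.12). The part of the hour of necropsy in these values was not tested.

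By the Pearson correlation over the 6 arrays, the named genes most like Sgk1 were Rnf208, Tcim and Plekha8 (r = 0.999, 0.998 and 0.996), those most like Tsc22d3 were Adal, Lsm7 and Lcn12 (r = 0.992, 0.989 and 0.987) and those most like Nr3c1 were Shpk, Rep15 and Mmadhc (r = 0.998, 0.993 and 0.984). For Nr3c2 they were Dusp1, itself a member, Tm4sf1 and Fscn3 (r = 0.999, 0.996 and 0.992). These were the highest of 12207 named genes compared over 6 arrays, a search that finds high values by its size, and they are given as a description.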
